A study of Canis lupus familiaris with 6 samples.

Results

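The 7 genes described here encode MDM2, BAX, PMAIP1, BCL2L1, MCL1, BCL2 and HTRA2, which belong to the p53 pathway and to the BCL2 family of apoptosis regulators. They were chosen as a list, with earlier results of these data known, and are 7 of the 1436 genes that could be named on the arrays. Every spot whose RefSeq transcript is one of theirs was taken, which gave 8 probes, 2 for BAX and 1 for each other gene. All 8 probes were well above background on all 6 arrays, so no member went undetected and all 8 passed the filter on low values.

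The arrays carry total RNA of scribKD cells, a line derived from MDCK-II, an established dog kidney tubule epithelial line, in which a short hairpin RNA against the polarity scaffold gene scribble is expressed when tetracycline is present. All 6 arrays hold this same line, so the arm without tetracycline also carries the uninduced hairpin, and the design has no arm of cells without the hairpin given tetracycline. No probe was matched to scribble, so the knockdown was not checked here. A response to tetracycline itself and one to the hairpin therefore cannot be told apart. One arm was left without tetracycline and the other was given 5 µg/ml at 6 h after plating. RNA was taken at 30, 45 and 60 h, with 1 array per arm and time. Each array carries RNA mixed from 3 wells, so no condition has a second array, and tests rest on how steady a difference was over the 3 times. The limma fit also draws the variance of each probe toward a value shared by all probes tested. Its SEs and p-values therefore reflect both the probe and that shared value.

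p53 is a transcription factor that responds to DNA damage and other stress by turning on genes that halt the cell cycle or start apoptosis. One of its targets, MDM2, is the ubiquitin ligase that marks p53 for destruction and so closes a feedback loop. Apoptosis through mitochondria is decided within the BCL2 family. BAX forms pores in the mitochondrial outer membrane, BCL2, BCL-XL (the BCL2L1 product) and MCL1 hold BAX in check, and the BH3-only protein NOXA (the PMAIP1 product) binds MCL1 and blocks it. Once the membrane is open, the protease HTRA2 leaves the mitochondrion and cuts inhibitors of caspases. In kidney epithelium these genes are known for their part in tubule cell death after injury.

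Levels below are log2 of the processed spot intensity relative to the 75th percentile of that array, and they are compared only within a probe, since 2 probes bind their targets differently. Differences are with minus without tetracycline on the same log2 scale. Of the spots on an array, 64.3% to 68.8% were well above background and 0 were saturated. The 75th percentile lay between 581.3 and 638.8 intensity units. Probes spotted more than once on an array had a median coefficient of variation of 4.71% to 5.73%. Of 14 tubule epithelial markers 6 have a named probe (CDH1, KRT19, CGN, OCLN, TJP1 and ATP1B1), and all 6 were well above background on all 6 arrays. The summed level of these 6 was 7.20 to 7.23 without and 6.92 to 7.04 with tetracycline, so the arms did not overlap. At their brightest probes KRT19, CGN, TJP1 and ATP1B1 were lower with tetracycline at all 3 times, with mean differences of -0.25 to -0.26, while the second TJP1 probe had a mean of 0.03. OCLN was higher at all 3 times with a mean of 0.13. CDH1 had a mean of 0.19, with 0.51 at 60 h, and its other probes had means of 0.17 and 0.13. The fibroblast marker DCN was not well above background on any array. The other 4 of 5 fibroblast markers with a probe were above it on all 6. Their mean differences were 0.59 for COL1A1, 0.02 for COL1A2, -0.02 for PDGFRB and 0.06 for THY1. The endothelial markers KDR and VWF and the leukocyte markers CD4 and CD8A (means 0.08 and -0.03) were also well above background on all 6. Summed fibroblast levels were 1.71 to 1.91 without and 1.85 to 1.90 with tetracycline, endothelial ones 4.53 to 4.59 and 4.46 to 4.62, and leukocyte ones -3.41 to -3.19 and -3.40 to -3.18. These sums take the brightest probe of each gene, so the endothelial one follows VWF. KDR alone had a mean difference of 0.26, with 0.53 at 60 h, and VWF one of -0.03. A dimmer PDGFRB probe, well above background on all 6 arrays, had one of 0.48. The dimmer COL1A2 probes that were well above background on all 6 arrays had means of -0.14 to 0.00. A second CD8A probe had a mean of 0.86 but was well above background on 1 of 6 arrays. The part of cell makeup in the results below was not tested. In RNA from whole wells, fewer cells of a type and less RNA per cell cannot be told apart.

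The comparison of the arms asks which of these genes differ between cells with and without tetracycline. MDM2, BAX and HTRA2 were each higher with tetracycline at every time, by 1.23- to 1.26-fold in the mean, PMAIP1 parted between the arms only late, MCL1 was slightly higher, BCL2 showed no steady direction and the dim BCL2L1 signal was lower. None of these differences passed an adjusted p of 0.05 in the limma fit over 28178 probes, in which 0% of probes passed (0 of 28178, smallest adjusted p = 0.105). Adding up directions, 5 of the 8 probes (4 of 7 genes) were higher at all 3 times, against 28.0% of all probes tested, and 1 was lower at all 3 times, against 21.6%. The median mean difference of the 8 probes was 0.31, beside 0.01 over all probes tested. Because the members were chosen with earlier results of these data known, such comparisons with all probes, here and below, are descriptions and not tests.

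**Figure D1:**
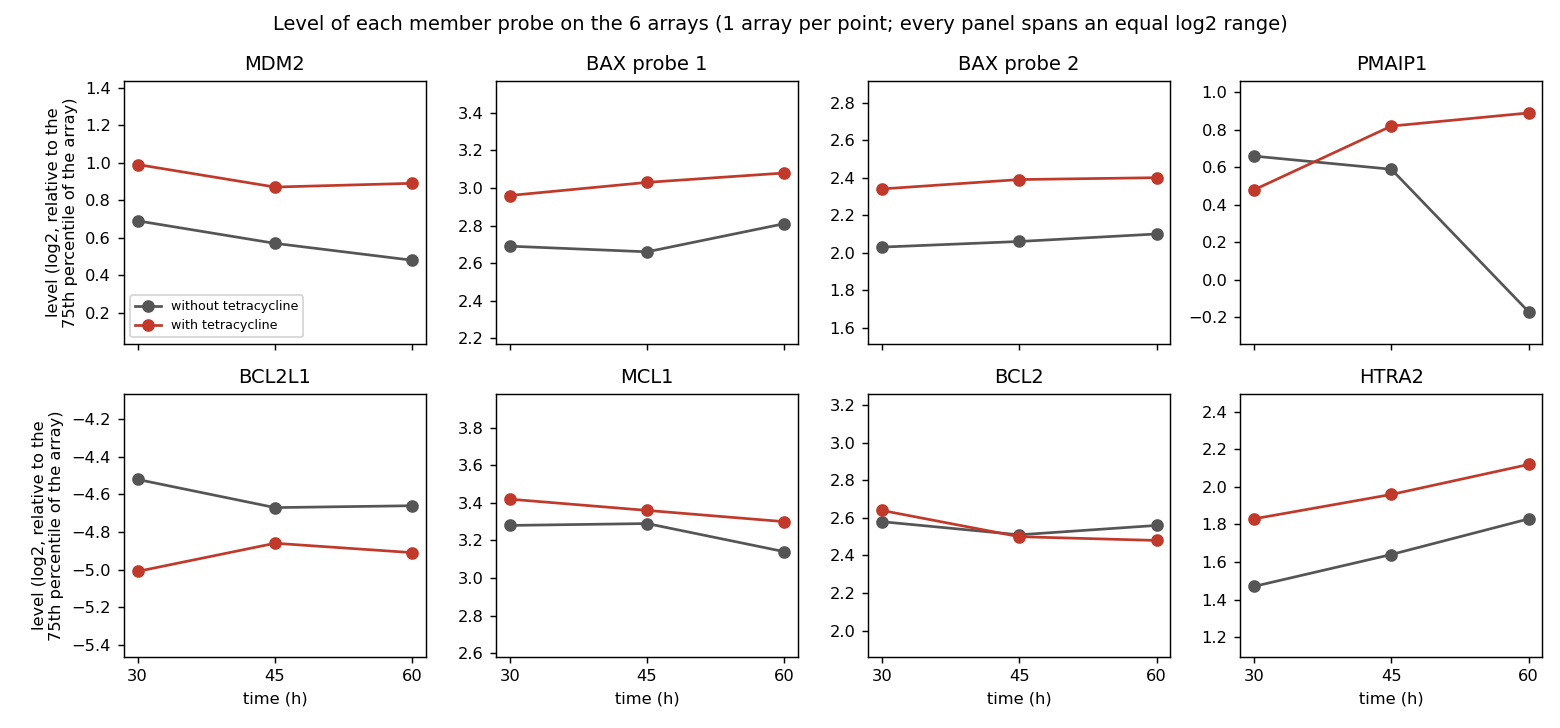
Level of each of the 8 probes (y axis, log2 relative to the 75th percentile of the array) against time in hours (x axis), without tetracycline in grey and with tetracycline in red; each point is 1 array and all panels span the same range. The red line lies above the grey one at all times for MDM2, both BAX probes, MCL1 and HTRA2, below it for BCL2L1, and the lines cross for PMAIP1 and BCL2.

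MDM2 (NM_001003103), the ligase that limits p53, stood at 0.69, 0.57 and 0.48 without tetracycline and at 0.99, 0.87 and 0.89 with it, at 30, 45 and 60 h. All 3 arrays with tetracycline lay above all 3 without. The raw intensities behind these levels were 821 to 1027 units without and 1081 to 1257 with tetracycline. With tetracycline the gene was 1.23-, 1.23- and 1.34-fold higher at the 3 times. The mean difference was 0.34 ± 0.07, where the error is the SE from the fit on 3 array pairs (limma adjusted p = 0.130). Within the arm without tetracycline the level was 0.21 lower at 60 h than at 30 h, and within the arm with it 0.09 lower. In the order of the 6 levels, the lowest array with tetracycline (45 h) and the highest without (30 h) were 0.18 apart. The 45 and 60 h levels with tetracycline were 0.03 apart. The fitted SD of 1 array, 0.09, is what remains after time and arm are removed, drawn toward the value shared by all probes tested. It therefore does not measure gaps between arrays of different times.

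BAX (NM_001003011), the pore-forming effector, is measured by 2 probes. The brighter one stood at 2.69, 2.66 and 2.81 without and at 2.96, 3.03 and 3.08 with tetracycline. The other stood at 2.03, 2.06 and 2.10 without and at 2.34, 2.39 and 2.40 with it. On both probes the arms did not overlap, and the difference between the arms at a given time was alike on both to within 0.04. The brighter probe was 1.20-, 1.30- and 1.21-fold higher at 30, 45 and 60 h (mean difference 0.30 ± 0.07, limma adjusted p = 0.136). The second probe was 1.24-, 1.26- and 1.23-fold higher (0.31 ± 0.06, limma adjusted p = 0.130). The probes share their RNA and their transcript, so they are 2 readings of 1 gene and not replicates of the condition. The difference did not move with time: its slope was 0.00 ± 0.08 per 15 h on the first probe and -0.01 ± 0.07 on the second.

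HTRA2 (NM_001284460), the mitochondrial protease that antagonises caspase inhibitors, stood at 1.47, 1.64 and 1.83 without and at 1.83, 1.96 and 2.12 with tetracycline. Both arms were higher at each later time, and the arm with tetracycline stayed above by a similar amount. The gene was 1.28-, 1.25- and 1.22-fold higher, a mean difference of 0.32 ± 0.07 (limma adjusted p = 0.129). The highest array without tetracycline and the lowest with it were only 0.005 apart, and they overlapped under quantile normalization and with the deposited series matrix values.

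Counting probes, all 3 arrays with tetracycline lay above all 3 without for 5 of the 8 (MDM2, both of BAX, MCL1 and HTRA2), against 11.9% of probes tested, and below for 1 (BCL2L1), against 10.3%. In the limma fit 4 of the 8, those of MDM2, BAX and HTRA2, were higher at an unadjusted p under 0.05, as were 12.3% of all probes tested, and 1, that of BCL2L1, was lower, as were 11.0%. With the slide as a further term, or without the 45 h pair, MDM2 alone of these kept an unadjusted p under 0.05. BCL2L1 also lost it with normexp correction, with a trended and robust prior and without the 30 h pair. The count of probes with the tetracycline arrays all above was 4 under each of 4 other scalings or background corrections, MCL1 or HTRA2 being the probe that overlapped. Both arrays of the 30 h pair share a slide, as do both of the 60 h pair, so these differences are within-slide values, while the 45 h pair spans the 2 slides.

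**Figure D2:**
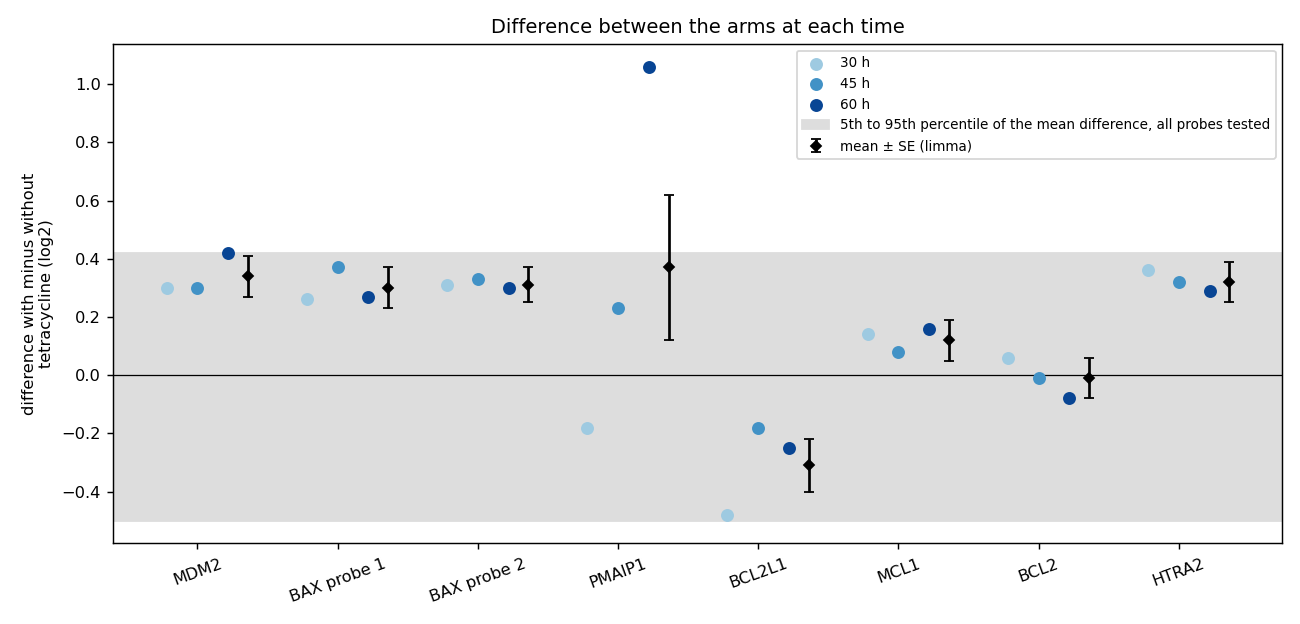
Difference with minus without tetracycline (y axis, log2) for each member probe (x axis) at 30, 45 and 60 h (light to dark blue, 1 pair of arrays each), with the mean and its SE from limma as a black diamond and bar. The grey band, -0.50 to 0.42, holds the mean difference of the middle 90% of probes tested, and the member means lie inside it. It does not apply to single times, for which the same range was -0.39 to 0.37 at 30 h, -0.56 to 0.48 at 45 h and -0.76 to 0.66 at 60 h. The 60 h value of PMAIP1, 1.06, lies above its range, and the 30 h value of BCL2L1, -0.48, lies below its range.

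PMAIP1 (NM_001195771), which encodes the BH3-only protein NOXA, had the largest difference among the members at any time. It stood at 0.66, 0.59 and -0.17 without tetracycline and at 0.48, 0.82 and 0.89 with it. The arms overlapped: the 30 h array with tetracycline lay below the 30 and 45 h arrays without it, and the 60 h array without tetracycline lay 0.65 below every other. In intensity units the gene went from 1009 at 30 h to 524 at 60 h without tetracycline, and from 887 to 1074 with it. It was 1.13-fold lower with tetracycline at 30 h, 1.17-fold higher at 45 h and 2.08-fold higher at 60 h. At 60 h, 3.05% of the probes detected in either arm were 2-fold higher or more. From 30 to 60 h the level differed by -0.83 without tetracycline and by 0.40 with it, so the wide gap at 60 h holds a lower level in the first arm as well as a higher one in the second.

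The mean difference of PMAIP1 over the 3 times was 0.37 ± 0.25 (limma adjusted p = 0.427), and without the 60 h pair it was 0.03. Without the 30 h pair it was 0.64. The difference moved by 0.62 ± 0.09 (SE) per 15 h, with limma adjusted p = 0.119, in a fit with 1 residual degree of freedom, where 0% of probes passed. This slope alone among the 8 probes had an unadjusted p under 0.05, as did 19.1% of probes tested. It passed the adjusted threshold with normexp background correction (0.62, limma adjusted p = 0.00448), where 1790 of 28178 probes passed. It also passed with a trended and robust prior (limma adjusted p = 0.00903), where 1862 of 28178 did. Over its alternatives the adjusted p of this slope ran from 0.00448 to 0.391. The slopes of the other 7 probes lay between -0.07 (BCL2) and 0.12 (BCL2L1), each with an SE of 0.07 to 0.09.

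Of the survival proteins, MCL1 (NM_001003016), the one that NOXA blocks, stood at 3.28, 3.29 and 3.14 without and 3.42, 3.36 and 3.30 with tetracycline. The arms were apart by 0.015 at the nearest point, and overlapped with median scaling and with normexp correction. Its mean difference was 0.12 ± 0.07 (limma adjusted p = 0.332), 1.09-fold, and 0.07 with normexp correction. BCL2 (NM_001002949), the founding member of the family, stood at 2.58, 2.51 and 2.56 without and 2.64, 2.50 and 2.48 with tetracycline. The arms overlapped fully and its mean difference was -0.01 ± 0.07 (limma adjusted p = 0.947), a direction that turned with median scaling (0.004) and without the 60 h pair (0.02).

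BCL2L1 (NM_001003072), which encodes BCL-XL, was read by a dim probe, at 23.4 to 27.8 intensity units without and 19.4 to 21.4 with tetracycline. The lowest signal called well above background on an array was 9.07 to 13.6 units, so this probe lay near the lower end of what the arrays measure. Its levels were -4.52, -4.67 and -4.66 without and -5.01, -4.86 and -4.91 with tetracycline, with no overlap of the arms. It was 1.40-, 1.14- and 1.19-fold lower, a mean difference of -0.31 ± 0.09 (limma adjusted p = 0.167). The scanning program's error was 13.7% to 18.0% of its intensity. Set against that error for a difference, only the 30 h value was larger (-0.48 against 0.34). The 45 h value (-0.18 against 0.31) and the 60 h value (-0.25 against 0.33) were within it. With normexp background correction the mean difference was -0.10, with the sign the same at all 3 times.

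Ratios of 2 members on the same array do not depend on a scaling factor per array, though they do on the background correction. The pairs given were chosen after their values were seen, with the brighter BAX probe. Between the arms, the level of BAX relative to BCL2 was higher with tetracycline by 0.20, 0.39 and 0.35 at 30, 45 and 60 h (mean 0.31 ± 0.10, SD over 3 pairs). BAX relative to MCL1 was higher by 0.13, 0.30 and 0.11. PMAIP1 relative to MCL1, NOXA and its partner, differed by -0.31, 0.15 and 0.90, a change of sign between 30 and 45 h. MDM2 relative to BAX differed by 0.04, -0.07 and 0.15, and HTRA2 relative to BAX by 0.09, -0.06 and 0.02. With 3 pairs no exact permutation test could pass a threshold of 0.05, and none is given.

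Time in culture, taken as 60 h minus 30 h over both arms, addresses whether these genes drift as the cells grow. None of the 8 probes passed an adjusted p of 0.05, as 8.11% of all probes tested did, and 1 had an unadjusted p under 0.05, as did 31.4%. That one was HTRA2, at 0.32 ± 0.08 (SE, 2 arrays per time; limma adjusted p = 0.0805), with 0.35 without and 0.29 with tetracycline. MDM2 stood at -0.15, MCL1 at -0.13, BCL2 at -0.09 and the BAX probes at 0.12 and 0.07, with limma adjusted p between 0.304 and 0.589. PMAIP1 stood at -0.21 ± 0.31 and BCL2L1 at -0.02 ± 0.11 (limma adjusted p = 0.677 and 0.926). Each of these values averages opposite changes, -0.83 without and 0.40 with tetracycline for PMAIP1, and -0.14 and 0.10 for BCL2L1. The 30 h arrays lie on one slide and the 60 h arrays on the other, and with the slide as a further term HTRA2 stood at 0.33 ± 0.24.

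Of 106 other genes listed for the pathway, 22 have a named probe and 20 passed the filter on low values. The counts here take the brightest probe of each gene. At an unadjusted p under 0.05, 2 of the 20 were higher with tetracycline, against 12.3% of all probes tested. In the other direction 1 was lower, against 11.0%, and 0 passed the adjusted threshold. In direction, 8 of the 20 were higher at all 3 times, against 28.0%, and 3 were lower, against 21.6%, with a median mean difference of 0.07 beside 0.01 over all probes tested. Of 35 other genes listed as p53 targets only 1 could be read. This was CCND1, which encodes the G1 cyclin D1 and whose link to p53 was not tested here. It stood at 0.10, 0.63 and 1.62 (mean difference 0.78 ± 0.31, limma adjusted p = 0.229). Among p53 regulators 3 of 16 were read. HIPK2, a kinase that phosphorylates p53, was lower at all 3 times, at -0.32, -0.48 and -0.27 (-0.36 ± 0.08, limma adjusted p = 0.133), while the damage kinases ATM and PRKDC had means of 0.00 and -0.05.

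In the rest of the BCL2 family 3 of 20 genes were read. The survival gene BCL2L2 was higher at all 3 times with a mean of 0.17, the pore former BAK1 had a mean of 0.06, and the BH3-only gene BAD one of -0.17. None of the 3 reached an unadjusted p of 0.05 in limma.

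Of 27 genes of mitochondrial release, caspases and their inhibitors, 12 have a probe and 11 were tested, 6 of them higher at all 3 times and 2 lower, against 28.0% and 21.6% of all probes tested. BIRC3, an inhibitor of apoptosis, had the largest mean difference, at 0.37, 0.93 and 1.16 (mean 0.82 ± 0.17, limma adjusted p = 0.130). Its second, dimmer probe had a mean of 0.78 but was well above background on only 4 of 6 arrays. DIABLO, which leaves the mitochondrion with HTRA2 and also blocks caspase inhibitors, was higher at 0.14, 0.17 and 0.35 (0.22 ± 0.08, limma adjusted p = 0.206). At the brightest probe of each gene, these are the 2 genes at an unadjusted p under 0.05 in limma. The inflammatory caspase CASP12 stood at 0.05, 0.09 and 1.05. Its probe was dim, with a mean level of -4.43, and 1 array, 60 h with tetracycline, stood at -3.54 against -4.82 to -4.37 on the others. The initiator of the death receptor route, CASP8, stood at 0.08, 0.22 and 0.33. The initiator of the mitochondrial route, CASP9, stood at -0.02, -0.16 and -0.26 and CASP2 at -0.03, -0.18 and -0.31. All 4 probes of CASP2 were negative in the mean, and 1 of the dimmer ones, at -0.25, had an unadjusted limma p of 0.0422. Of 12 death receptor genes 3 have a probe and 2 were tested, the ligands TNFSF10 (mean 0.08) and TNF (-0.08). A second TNF probe, with a mean of 0.11, and the probe of FASLG were not well above background on any array.

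**Figure D3:**
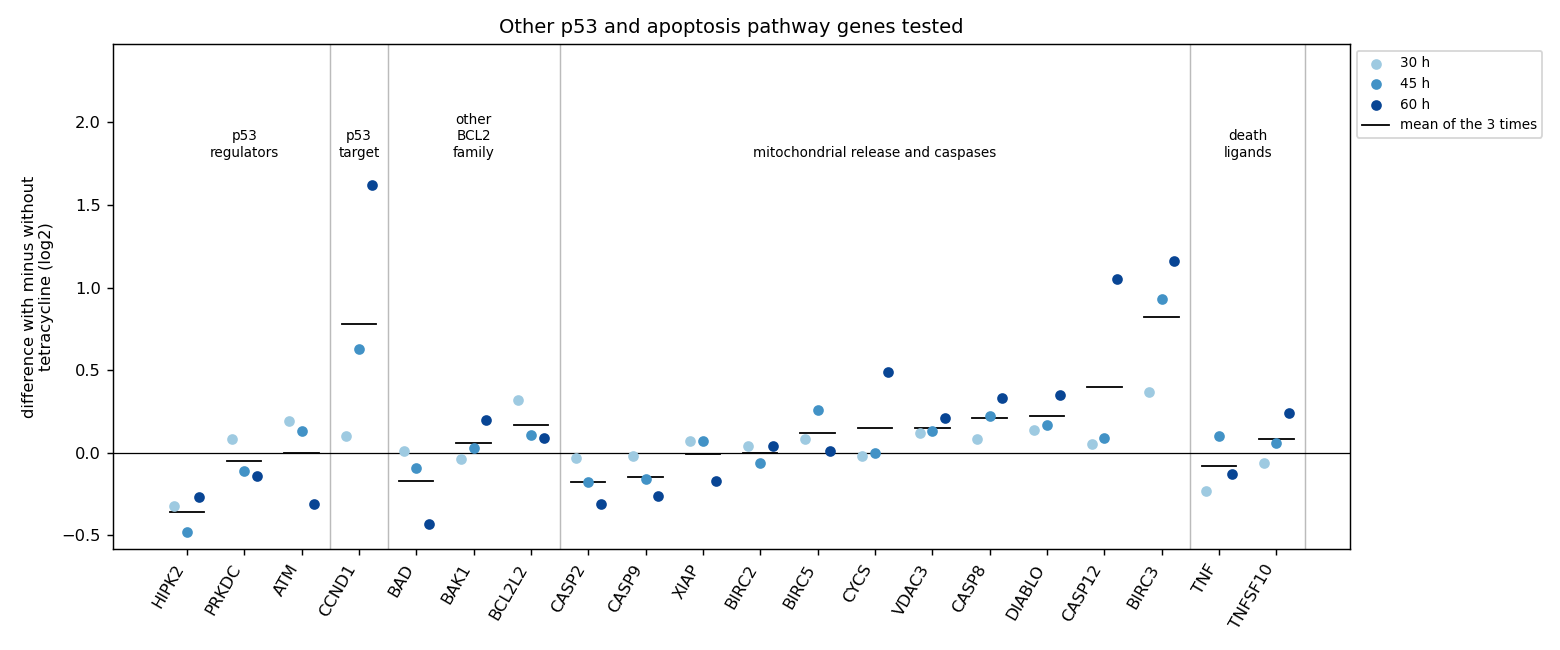
Difference with minus without tetracycline (y axis, log2) for the 20 other pathway genes tested (x axis, grouped by list), at 30, 45 and 60 h in light to dark blue with the mean of the 3 times as a black bar; each point is 1 pair of arrays. CCND1, BIRC3 and CASP12 reach 1.62, 1.16 and 1.05 at 60 h, and HIPK2 lies below 0 at all times. Each gene is shown by its brightest probe, and that of CASP12 is dim (mean level -4.43).

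By likeness of the 6 levels among 1150 named probes, PMAIP1 was most like PI3, which encodes the protease inhibitor elafin (r = 0.975), and MYH9, a nonmuscle myosin heavy chain (r = 0.960). PI3 stood at 0.14, -0.05 and -0.55 without and at 0.07, 0.20 and 0.34 with tetracycline, so it too was lowest at 60 h without it. MDM2 was most like the ribosomal protein gene RPL15 (r = 0.989) and the proteasome subunit gene PSMC1 (r = 0.984), and 4.35% of the named probes reached an r over 0.9 with it. The brighter BAX probe was most like SSU72 (r = 0.976) and MGMT (r = 0.960), and the second like PIP5K1A (r = 0.969) and EIF4E2 (r = 0.963). HTRA2 was most like the endosomal GTPase gene RAB5A (r = 0.985) and LEPROT (r = 0.973), and BCL2L1 was like HTR1D (r = 0.933). MCL1 was most like another probe of RPL15 (r = 0.998) and GNB1 (r = 0.989), and BCL2 like ZBED5 (r = 0.966) and POR (r = 0.958). These correlations describe 6 arrays that share the arms, times and slides, and carry no test.

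**Figure D4:**
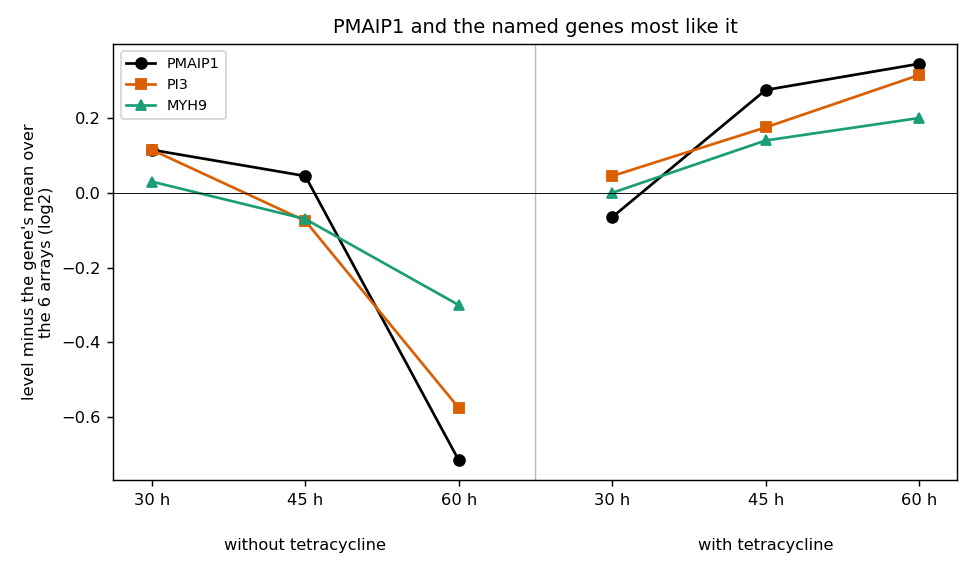
Level minus the mean of that gene over the 6 arrays (y axis, log2) for PMAIP1, PI3 and MYH9 at 30, 45 and 60 h without (left) and with tetracycline (right); each point is 1 array. For these 3 genes the lowest point is the 60 h array without tetracycline and the highest the 60 h array with it.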

How the data were processed

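The authors scanned the arrays with Agilent Feature Extraction 11.5.1.1, per the submitters' processing notes. The deposited processed intensity of each spot is linear, background-subtracted and spatially detrended, per the file headers, and not normalized across arrays. Values of the series matrix are this intensity times 1 factor per array. Of 43803 non-control spots, outlier spots were left out and repeat spots averaged; 43584 probes remained. A level is log2 intensity minus log2 of the 75th percentile of its array. RefSeq transcript accessions gave 2325 probes a symbol, through a gene table whose assembly (UU_Cfam_GSD_1.0) is not that of the arrays and which served only for symbols.

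The 28178 probes detected on every array of either arm were tested with limma 3.58.1 in R 4.3.3 (lmFit, eBayes, two-sided, Benjamini-Hochberg over all of them). The arm fit had time as a factor (2 residual degrees of freedom), the slope added arm by linear time per 15 h, and time in culture contrasted 60 with 30 h. In the arm fit the variances were drawn toward a prior SD of 0.107 with 2.37 prior degrees of freedom. The scripts were tested on simulated data. Members and lists were chosen with earlier results of these data known. The rule names all members, up to 4 genes per list by absolute mean difference, and 2 genes per member by correlation of levels with a range of at least 0.3; 1 of the latter genes is not reported here, and CASP9 and CASP2 were added after their values were seen. The alternatives were other scalings, background correction, filters, priors, terms and left-out pairs.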

Additional observations from a re-analysis of the deposited data

Results flagged for a closer look

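For PMAIP1 the difference between the arms was negative at 30 h and positive at 45 and 60 h, a span of 1.23 between its lowest and highest value. Its change from 30 to 60 h had opposite signs in the arms, at -0.83 without and 0.40 with tetracycline, again 1.23 apart. The limma slope of this difference did not pass the adjusted threshold (adjusted p = 0.119).

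BCL2 also had differences of both signs, 0.06 at 30 h and -0.08 at 60 h, a span of 0.14. The change of BCL2L1 from 30 to 60 h was -0.14 without and 0.10 with tetracycline, 0.23 apart. For BCL2 and BCL2L1 the limma slope had an adjusted p of 0.626 and 0.528.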

How the results depend on the processing

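No member passed the adjusted threshold for the arms under any alternative. Probes past it numbered 143 with normexp, 20 with a trended and robust prior, 21 with no time term, and 0 to 1 when a pair was left out (1 without the 30 h pair); a slide term gives the fit without the 45 h pair. BCL2 turned to 0.004 with median scaling and ran from -0.046 to 0.024 over left-out pairs. Probes lower at all times, or with all tetracycline arrays below, numbered 1 to 2 over left-out pairs. For the slope, 301 probes passed with median scaling, 1790 with normexp, 1862 with the trended prior and 2 among probes above background on all 6 arrays. Slopes near 0 turned: BAX's brighter probe to -0.013 (quantile), -0.016 (series matrix) and -0.018 (normexp), its other to 0.029 (median) and 0.020 (normexp), MCL1 to -0.018, -0.009 and -0.002 (quantile, series matrix, normexp), MDM2 to -0.013 (normexp). For time in culture 2285 probes passed, but 4199 with normexp, 3851 with the trended prior, and 0 with no filter, with a slide term or without any 1 of the 4 arrays, where fewer arrays leave 1 residual degree of freedom. HTRA2 passed only with the trended prior (adjusted p = 0.0497). BAX's second probe turned to -0.008 (median), BCL2L1 to 0.034 (series matrix) and 0.052 (normexp) and from -0.152 to 0.115 over left-out arrays, PMAIP1 from -0.727 to 0.302. Other causes were not tested. Leaving out arrays for time, and member counts under alternatives, were chosen after seeing the data.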
